A study of Mus musculus with 6 samples.

Results

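Transient receptor potential (TRP) channels are cation channels of the cell membrane and of organelles, and 9 of their genes were followed here across the cell classes of the mouse brain. They were Trpm2, Trpm3, Trpm4, Trpm6, Trpm7, Trpv2, Trpv4, Trpc1 and Trpc6, found by gene symbol among the 33696 genes of the deposited tables, and all 9 were found. The series holds 6 droplet 3' RNA libraries of dissociated brain cells, with 2 libraries in each of 3 groups. Wild-type mice given vehicle are called WT vehicle, wild-type mice given bilirubin WT bilirubin, and animals labelled TRPM2 Mg KO and given bilirubin TRPM2 Mg KO bilirubin. These 6 libraries hold no knockout group with vehicle, so the response of the knockout to bilirubin could not be estimated. The labels do not expand "Mg". No source used here gives the place of the deletion, the driver of any Cre, or the dose, duration, brain region, age and sex. The labels do not state whether the replicates of a group are separate animals, so every p-value reflects only how these libraries vary, possibly for technical reasons.

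TRPM2 is a calcium-permeable channel that opens on binding ADP-ribose, a breakdown product of NAD and of poly-ADP-ribose chains that builds up under oxidative stress, and it is best known in phagocytes. The other members answer different stimuli. TRPM4 passes monovalent ions when calcium rises, TRPM6 and TRPM7 join a magnesium-permeable pore to a kinase domain, TRPM3 responds to heat and neurosteroids, TRPV2 and TRPV4 to mechanical or osmotic stress and heat, and TRPC1 and TRPC6 act downstream of phospholipase C. The comparisons address where each gene was expressed, and whether its level differed with bilirubin or with the knockout label.

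The libraries held 4137 to 24309 barcodes and 24165563 to 63402551 unique molecular identifiers (UMIs, single captured transcripts), and the median barcode had 1149 to 2071 of them. After filters on quality and doublets, 3980 to 19566 cells per library were kept, 78994 in all. Cells were assigned to classes by marker genes, none of them a member, and class names carry "-like" because they were rebuilt from these markers. The gate assigned 23917 cells (30.3%), tied on 460 and left 54617 with fewer than 3 raised markers. Tests covered the 10 classes that reached 20 cells in every library, from 315 fibroblast-like to 5266 microglia-like cells in all. Left out were the excitatory neuron, inhibitory interneuron, medium spiny neuron, neuroblast and oligodendrocyte precursor classes. The border macrophage, monocyte or dendritic cell, B cell and neutrophil classes were left out too. The order of classes given for each gene therefore does not cover neurons or these other cells. Cells at the minimum of 3 markers made up 27.1% of microglia-like, 46.9% of choroid plexus-like, 52.9% of astrocyte-like and 71.4% of fibroblast-like cells. These shares differed between libraries. Microglia-like cells at the minimum were 347 of 651 and 428 of 1459 in WT vehicle, 216 of 1135 and 140 of 706 in WT bilirubin, and 235 of 1054 and 62 of 261 in TRPM2 Mg KO bilirubin. The gate assigned 18.1% of kept cells in WT vehicle 1, against 31% to 38.4% in the other libraries. Pairs of libraries shared 12 to 141 barcodes. WT vehicle 1 stood apart, with a level of the choroid plexus transcript Ttr of 12349 CPM in the whole library against 66497 to 122089 in the other 5, and folds against WT vehicle that rest on it are also given without it. Levels are given as CPM, the gene's UMIs per 1000000 UMIs of the class or library, and libraries are listed in the order WT vehicle 1 and 2, WT bilirubin 1 and 2, TRPM2 Mg KO bilirubin 1 and 2. Most UMIs of 8 members lay in cells without a class (50.8% to 72.4%), and for Trpv4 the share was 46.3%.

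**Figure D1:**
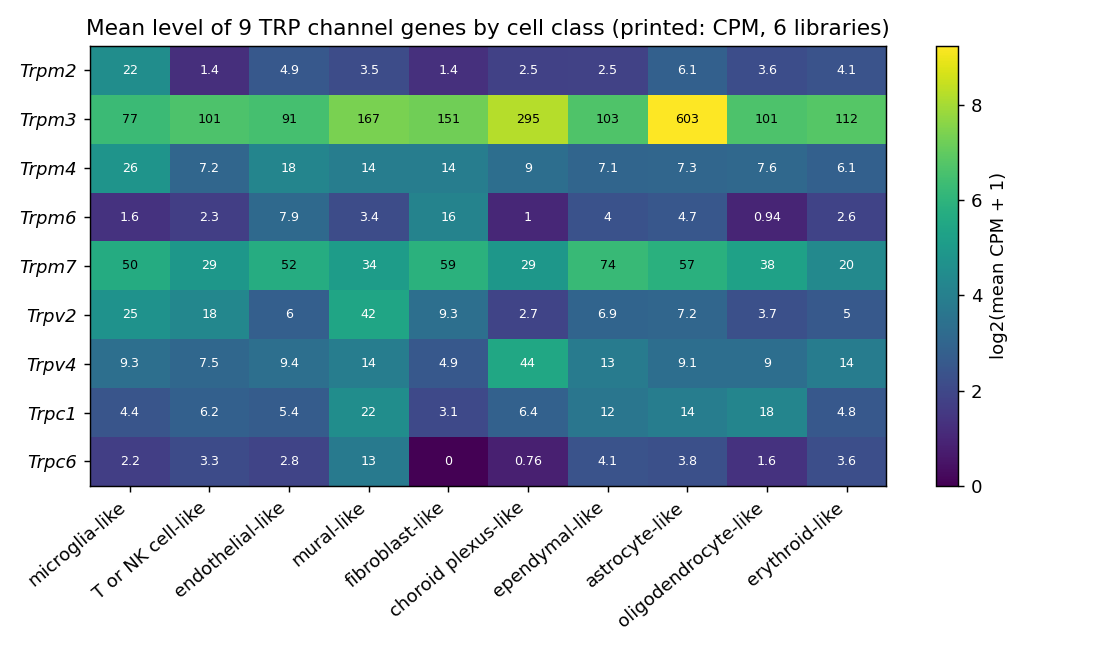
Mean CPM over 6 libraries of the 9 TRP channel genes (rows) in the 10 tested cell classes (columns), with colour as log2(mean CPM + 1), to be read along a row since counts of 3' tags are not scaled between genes. Trpm2 and Trpm4 had their highest mean in microglia-like cells, Trpm3 in astrocyte-like cells, Trpv4 in choroid plexus-like cells, Trpm6 in fibroblast-like cells, and Trpv2, Trpc1 and Trpc6 in mural-like cells.

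Trpm2 is named in the knockout label, and its transcripts were present in all 6 libraries. The whole libraries held 264 and 320 Trpm2 UMIs in WT vehicle, 264 and 174 in WT bilirubin, and 268 and 106 in TRPM2 Mg KO bilirubin, or 11.5 and 6.29, 5.17 and 7.90, and 6.48 and 4.48 CPM. In microglia-like cells, the phagocytes resident in the brain, the counts were 33 and 71, 92 and 66, and 69 and 24 UMIs. Since 3' tags are still counted when a deletion lies elsewhere in the gene, these levels do not check the label. In whole libraries, fewer cells of a type and less RNA per cell cannot be told apart.

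Among the tested classes, Trpm2 was highest in microglia-like cells, which held 62.2% of its UMIs there. Their level was 25.0 and 16.3, 20.5 and 34.6, and 16.5 and 20.3 CPM, a mean of 22.2 ± 6.83 (SD, n = 6). The lowest of these libraries was above the highest library of astrocyte-like cells, the next class (6.14 ± 2.21 CPM). From there the means ran within overlapping spreads through endothelial-like (4.89 ± 1.77), erythroid-like (4.13 ± 1.40), oligodendrocyte-like (3.58 ± 2.33), mural-like (3.46 ± 4.25), ependymal-like (2.51 ± 1.75), choroid plexus-like (2.46 ± 2.67) and fibroblast-like (1.43 ± 2.67) to T or NK cell-like cells (1.36 ± 1.75). Against the other gated cells of the same libraries, Trpm2 was higher in microglia-like cells by 2.31 on the log2 scale (SE 0.17, edgeR adjusted p = 2.39e-07). It was lower in 6 classes, among them T or NK cell-like (log2 fold change -2.41, SE 0.56), ependymal-like (-1.97, SE 0.37) and choroid plexus-like cells (-1.69, SE 0.28). The lower calls in endothelial-like, oligodendrocyte-like and fibroblast-like cells were lost when single libraries were left out, among them WT bilirubin 1 each time.

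Neutrophil-like cells, another phagocyte class, were too few for the 10 classes and were added after the data were seen, with 16 and 171, 61 and 72, and 26 and 37 cells. They held 1 and 7, 6 and 18, and 12 and 7 Trpm2 UMIs, or 28.1 and 17.5, 19.0 and 51.0, and 75.5 and 10.4 CPM. The mean of 33.6 ± 24.9 CPM (SD, n = 6) overlapped that of microglia-like cells. Trpm2 was higher there than in the other gated cells (log2 fold change 2.35, SE 0.35, edgeR adjusted p = 6.98e-10), where 8.89% of all genes tested in that class were called. The other 8 members had adjusted p-values of 0.149 or more in neutrophil-like cells, and Trpc6 had 0 UMIs there in all 6 libraries.

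**Figure D2:**
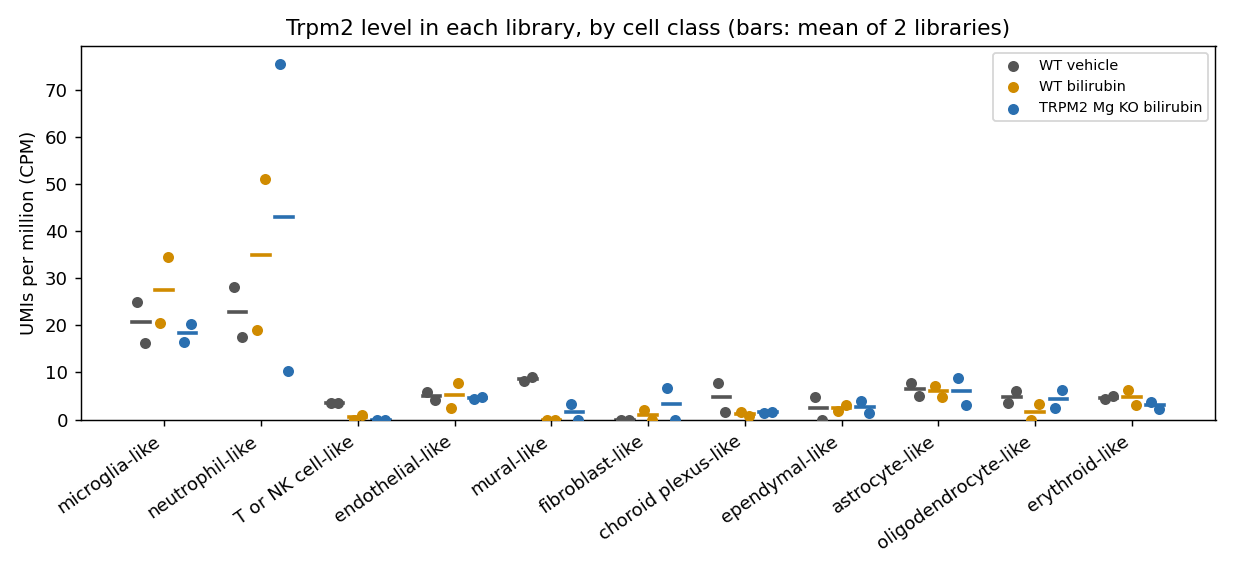
Trpm2 level in CPM in each library (points, coloured by group) by cell class, with bars at the mean of the 2 libraries of a group. Microglia-like libraries lie between 16.3 and 34.6 CPM and neutrophil-like libraries between 10.4 and 75.5 CPM, while the highest library of any other class is at 9.05 CPM.

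Trpm2 was detected in 334 of 5266 microglia-like cells, a mean share over libraries of 6.81% ± 1.9 (SD, n = 6). Their median depth was 1952 and 2773, 3733 and 2574, and 3885 and 3638 UMIs per cell. After thinning each cell to 1000 UMIs, which left out 152 shallower cells, the share was 2.17% ± 0.633. Choroid plexus-like cells, taken as the background, had 0.305% ± 0.385 after thinning, 1.24% before, and deeper cells at 2268 to 8454 median UMIs per library. The microglia-like share was higher in 6 of 6 libraries, by 1.87 percentage points (exact two-sided sign-flip test, p = 0.03125, the smallest that 6 libraries allow, and 0.03125 adjusted over 4 such tests).

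The stretches of 250 bases before the annotated start of Trpm2 and the first of 3 annotated starts of Trpv2 are shown to set these promoters side by side. Both genes were higher in microglia-like cells. They come from RefSeq (GRCm38.p6), 5′ to 3′ on the gene's strand. The genome build used for counting is not settled, and the positions locate the printed sequence only. Capitals mark GAGGAA or TTCCTC, a form of the sequences bound by ETS factors such as PU.1 of myeloid cells, searched on both strands. Shorter or other forms were not searched, so no match means only that these letters are absent.
Trpm2, chr10:77969873-77970122, minus strand: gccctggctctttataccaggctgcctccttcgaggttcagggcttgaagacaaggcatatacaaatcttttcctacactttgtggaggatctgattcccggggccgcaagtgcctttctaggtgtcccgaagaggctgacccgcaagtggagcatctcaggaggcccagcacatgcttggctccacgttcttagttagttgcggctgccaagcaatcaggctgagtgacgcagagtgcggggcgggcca
Trpv2, chr11:62574236-62574485, plus strand: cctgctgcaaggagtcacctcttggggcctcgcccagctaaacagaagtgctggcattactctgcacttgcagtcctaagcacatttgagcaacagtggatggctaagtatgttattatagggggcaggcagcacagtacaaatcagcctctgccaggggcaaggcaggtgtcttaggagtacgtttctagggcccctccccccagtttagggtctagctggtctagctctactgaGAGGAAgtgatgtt
The Trpm2 stretch had 56.8% G and C and 10 CG pairs, and no match. The Trpv2 stretch had 53.2% G and C and 2 CG pairs, with 1 match that starts 14 bases before the start. Among 32851 mouse promoters of this length 23.3% held a match and the median content of G and C was 52.4%. Of the 11 entries for 8 of the 9 members, 2 held one, both from overlapping Trpv2 entries. The third Trpv2 entry held none. A match is a description of letters, not a site.

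Trpv2, a channel known for roles in macrophages, was also high in microglia-like cells, which held 50.4% of its UMIs in the tested classes. Their level was 21.9 and 21.4, 20.5 and 38.2, and 25.4 and 22.9 CPM (25.1 ± 6.66, SD, n = 6), with 5 of 6 libraries between 20.5 and 25.4. Mural-like cells had the highest mean, 42.4 ± 53.5 CPM, from 1 and 5, 16 and 6, and 10 and 0 UMIs. The single value of 147 CPM in WT bilirubin 2 set that mean, and the mural-like range of 0 to 147 CPM spanned all microglia-like libraries. T or NK cell-like cells followed at 18.2 ± 12.7 CPM. Then came, with overlapping ranges, fibroblast-like (9.32 ± 6.16), astrocyte-like (7.20 ± 1.70), ependymal-like (6.88 ± 3.06), endothelial-like (5.99 ± 2.55), erythroid-like (4.96 ± 3.33), oligodendrocyte-like (3.72 ± 1.56) and choroid plexus-like cells (2.68 ± 1.51).

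Against the other gated cells Trpv2 was higher in microglia-like cells (log2 fold change 1.82, SE 0.12, edgeR adjusted p = 1.16e-07), in T or NK cell-like cells (1.20, SE 0.27, adjusted p = 0.00156) and in mural-like cells (1.47, SE 0.32, adjusted p = 9.21e-05). The mural-like call was lost without WT bilirubin 1, at 1.12, and with DESeq2, at 1.34. Trpv2 was lower in 5 classes, with the lowest fold in choroid plexus-like cells (-1.80, SE 0.27), and the ependymal-like call was lost without WT bilirubin 1 (-0.72) or 2 (-0.66). At equal depth, 2.51% ± 0.733 of microglia-like cells held a Trpv2 UMI against 0.344% ± 0.149 of oligodendrocyte-like cells, the background class, with medians of 1985 to 5434 UMIs per cell. The difference of 2.17 points was seen in 6 of 6 libraries (exact sign-flip test, p = 0.03125, 0.03125 adjusted). Before thinning the shares were 7.60% and 1.58%.

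Trpm4, which depolarises cells when their calcium rises, had 33.3 and 24.6, 23.0 and 32.5, and 22.5 and 22.9 CPM in microglia-like cells (26.5 ± 5.03, SD, n = 6). Endothelial-like cells came next at 17.5 ± 7.98 CPM, and their highest library, 29.3 CPM in WT vehicle 1, overlapped the microglia-like range. Mural-like (14.1 ± 9.44) and fibroblast-like cells (14.0 ± 8.97) were followed by choroid plexus-like cells (8.99 ± 2.92), which held 22.3% of the Trpm4 UMIs in the tested classes. The remaining 5 classes had means of 6.06 to 7.64 CPM. Trpm4 was higher in microglia-like cells than in the other gated cells (log2 fold change 1.45, SE 0.14, edgeR adjusted p = 1.49e-06) and lower in astrocyte-like (-0.98, SE 0.24), ependymal-like (-1.09, SE 0.26) and oligodendrocyte-like cells (-0.81, SE 0.26). The call in oligodendrocyte-like cells was lost with doublets kept, at -0.59, and without WT vehicle 1, WT bilirubin 1 or TRPM2 Mg KO bilirubin 1, at -0.60 to -0.84.

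Over the 9 members and 10 classes, 51 of 90 class levels were called, 18 higher and 33 lower, against 42.6% of all 154744 gene and class tests called, 18.7% higher and 23.9% lower. At an unadjusted p under 0.05 there were 56, and DESeq2 called 47. By class, the share of all genes called was 71.0% in choroid plexus-like, 67.5% in microglia-like, 51.9% in ependymal-like, 48.9% in astrocyte-like, 41.1% in endothelial-like, 40.2% in oligodendrocyte-like, 35.4% in T or NK cell-like, 34.8% in fibroblast-like, 16.6% in erythroid-like and 15.2% in mural-like cells. In microglia-like cells 32.1% of genes were higher and 35.4% lower, and in choroid plexus-like cells 31.1% and 39.9%. A call is thus common among genes, and the values given for the members describe the size of the fold. The other gated cells are a sum in which deep choroid plexus-like cells weigh heavily, so a class can be higher than this sum without being the highest class.

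**Figure D3:**
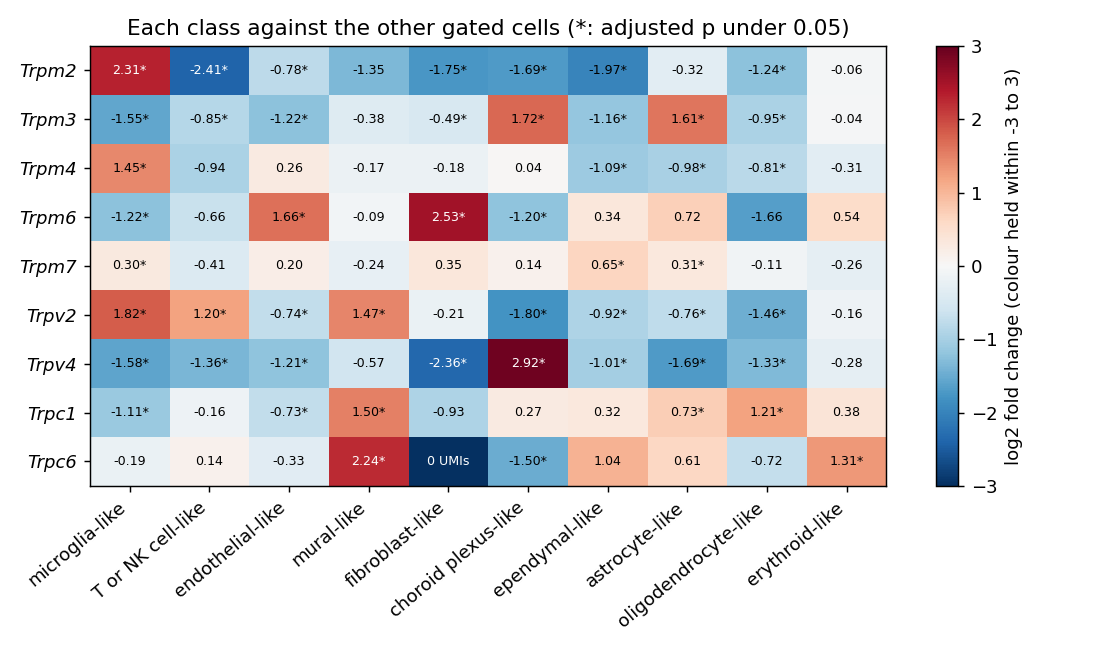
Log2 fold change of each TRP channel gene (rows) in each cell class (columns) against the other gated cells of the same 6 libraries, with stars where the edgeR adjusted p is under 0.05. Trpm2 stands out in microglia-like cells at 2.31 and Trpv4 in choroid plexus-like cells at 2.92, and Trpc6 in fibroblast-like cells is marked as 0 UMIs.

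Trpv4, which senses cell swelling and fluid flow, had its highest level in choroid plexus-like cells, the epithelium that secretes cerebrospinal fluid and is marked by Ttr. They held 70.5% of its UMIs in the tested classes: 20 and 265, 457 and 278, and 383 and 74 UMIs, or 22.5 and 40.7, 48.9 and 67.4, and 43.1 and 42.0 CPM (44.1 ± 14.5, SD, n = 6). WT vehicle 1 was the lowest library and WT bilirubin 2 the highest. The other classes overlapped each other, and the highest mural-like (41.9 CPM) and erythroid-like libraries (25.3 CPM) reached into the choroid plexus-like range. Their means were mural-like (14.1 ± 15.5 CPM), erythroid-like (13.8 ± 9.18), ependymal-like (13.2 ± 7.16), endothelial-like (9.40 ± 6.01), microglia-like (9.30 ± 4.11), astrocyte-like (9.14 ± 4.61), oligodendrocyte-like (9.02 ± 4.29), T or NK cell-like (7.52 ± 5.49) and fibroblast-like cells (4.90 ± 5.15). Trpv4 was higher in choroid plexus-like cells than in the other gated cells (log2 fold change 2.92, SE 0.21, edgeR adjusted p = 2.37e-07), where 31.1% of all genes were higher. It was lower in 7 classes, from -1.01 (SE 0.23) in ependymal-like to -2.36 (SE 0.41) in fibroblast-like cells.

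Outside the choroid plexus-like class, Trpv4 was set beside Ttr, a transcript that other brain cells should hold little of. Ttr stood at 109972 and 172678, 220989 and 262700, and 200479 and 158623 CPM in choroid plexus-like cells, and at 3770 to 28091 CPM in microglia-like cells. Per 1000 Ttr UMIs, choroid plexus-like cells held 0.204 and 0.235, 0.221 and 0.257, and 0.215 and 0.265 Trpv4 UMIs, a nearly constant ratio over the 6 libraries. The medians of the other 9 classes were 0.164 to 0.452, on both sides of the ratio within the class. In endothelial-like cells the ratio was 0 and 0.089, 0.395 and 0.365, and 0.521 and 0.286. The part of free RNA from choroid plexus in these levels was not tested.

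At equal depth 4.74% ± 1.52 of choroid plexus-like cells held a Trpv4 UMI (SD, n = 6), by library 2.34% and 4.56%, 5.04% and 7.07%, and 4.43% and 5.01%. In microglia-like cells the share was 0.806% ± 0.282. The difference of 3.94 points had the same sign in 6 of 6 libraries (exact sign-flip test, p = 0.03125, 0.03125 adjusted). Before thinning the shares were 25.0% and 3.17%, at the median depths given above.

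Trpm3 differed from Trpv4 in being shared by 2 classes. In astrocyte-like cells, the glia that support neurons, it stood at 592 and 455, 579 and 1090, and 448 and 454 CPM (603 ± 247, SD, n = 6). Choroid plexus-like cells, with 52.5% of its UMIs, had 264 and 202, 299 and 557, and 258 and 187 CPM (295 ± 135). In both classes WT bilirubin 2 was the highest library, and within each library the astrocyte-like level was above the choroid plexus-like level. Mural-like (167 ± 98.1), fibroblast-like (151 ± 51.6), erythroid-like (112 ± 24.7), ependymal-like (103 ± 26.9), T or NK cell-like (101 ± 40.9), oligodendrocyte-like (101 ± 23.4) and endothelial-like cells (90.7 ± 19.0) overlapped each other, down to microglia-like cells at 76.7 ± 12.

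Against the other gated cells Trpm3 was higher in choroid plexus-like cells (log2 fold change 1.72, SE 0.17, edgeR adjusted p = 1.84e-06) and in astrocyte-like cells (1.61, SE 0.13, adjusted p = 3.38e-09), and lower in 6 classes, such as microglia-like cells (-1.55, SE 0.16). The lower call in fibroblast-like cells (-0.49) was lost without WT bilirubin 2, at -0.26. At equal depth 23.4% ± 7.14 of choroid plexus-like cells held a Trpm3 UMI against 6.33% ± 0.945 of microglia-like cells, 17.0 points more in 6 of 6 libraries (exact sign-flip test, p = 0.03125, 0.03125 adjusted). In astrocyte-like cells, at medians of 1294 to 1878 UMIs, the share was 34.0% ± 12.7, and without thinning 45.6%, against 69.1% in choroid plexus-like and 17.3% in microglia-like cells. Per 1000 Ttr UMIs, choroid plexus-like cells held a median of 1.32 Trpm3 UMIs and astrocyte-like cells 24.6, with 2.49 to 8.30 in the other 8 classes. The astrocyte-like ratio was above the choroid plexus-like ratio in 6 of 6 libraries.

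**Figure D4:**
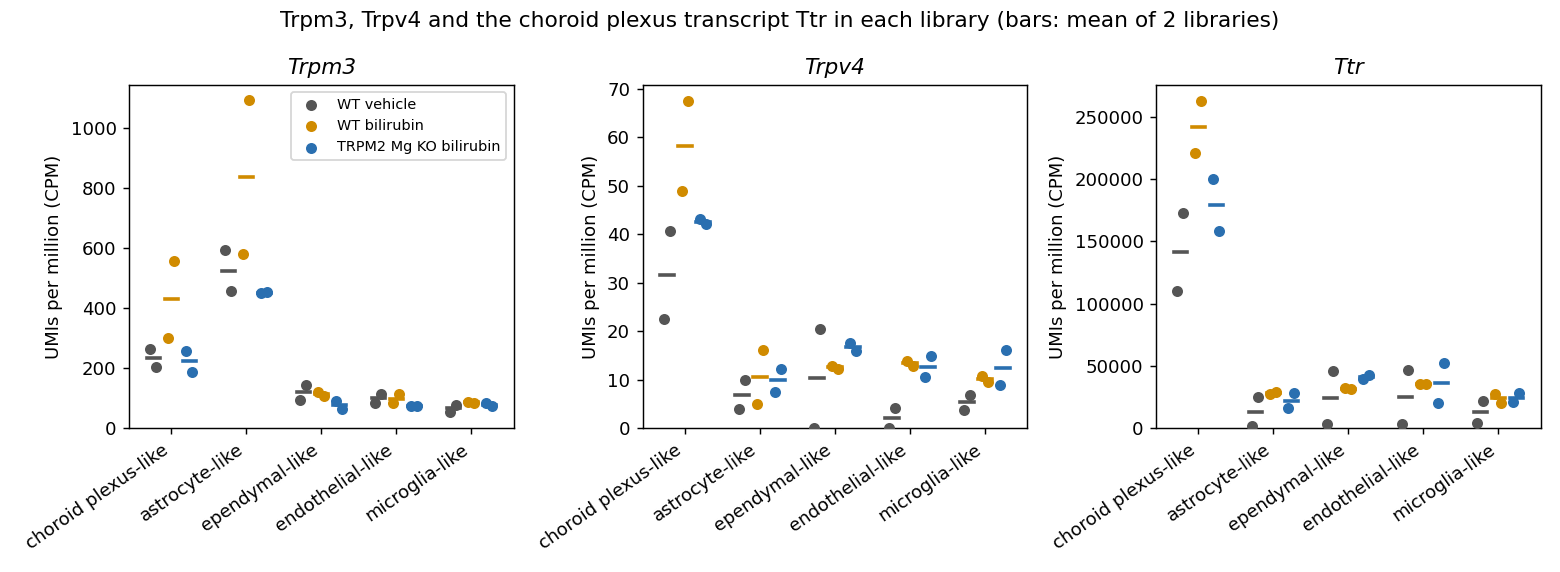
Level in CPM of Trpm3, Trpv4 and the choroid plexus transcript Ttr in each library (points, coloured by group) in 5 cell classes, with bars at the mean of 2 libraries. Trpv4 reaches 22.5 to 67.4 CPM in choroid plexus-like cells, Trpm3 is highest in astrocyte-like cells at 448 to 1090 CPM, and Ttr is lowest in WT vehicle 1 in each of the 5 classes.

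The 250 bases before the start of Trpm3 (the first of 2 annotated starts) and of Trpv4, both higher in choroid plexus-like cells, follow, from the same RefSeq table.
Trpm3, chr19:22138796-22139045, plus strand: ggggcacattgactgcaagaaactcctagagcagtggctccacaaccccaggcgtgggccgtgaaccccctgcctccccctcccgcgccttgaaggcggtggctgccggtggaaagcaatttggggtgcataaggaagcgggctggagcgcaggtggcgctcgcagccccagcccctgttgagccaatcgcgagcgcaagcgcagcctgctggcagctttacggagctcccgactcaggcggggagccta
Trpv4, chr5:114658422-114658671, minus strand: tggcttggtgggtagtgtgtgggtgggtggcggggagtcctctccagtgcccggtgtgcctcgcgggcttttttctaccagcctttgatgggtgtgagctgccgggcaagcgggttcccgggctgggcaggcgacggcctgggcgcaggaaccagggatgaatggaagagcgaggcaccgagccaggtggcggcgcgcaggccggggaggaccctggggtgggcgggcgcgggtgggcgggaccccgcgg
They were richer in G and C (66.4% and 72.0%, with 17 and 22 CG pairs) than the Trpm2 and Trpv2 stretches. The second Trpm3 start had 59.2% and 9 CG pairs, beside 56.8% and 10 for Trpm2. Trpc1 (62.8%, 17 CG pairs) and Trpm7 (60.4%, 26 CG pairs), not called higher in choroid plexus-like cells, were above the Trpm2 and Trpv2 stretches too. The core TAATCC, or GGATTA on the other strand, bound by OTX-type factors of choroid plexus, was found in 0 of the 11 member entries and in 6.25% of all 32851 promoters. That count says only that these letters are not in these windows.

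Trpm6 and Trpm7 are the channel-kinases of magnesium balance, and their class patterns differed. Trpm6 was rare, with 674 UMIs in all, and highest in fibroblast-like cells at 15.7 and 14.0, 19.5 and 23.9, and 11.1 and 14.8 CPM (16.5 ± 4.55, SD, n = 6). These values rest on 1 and 3, 10 and 7, and 5 and 2 UMIs. Endothelial-like cells, which line the vessels, held the largest part of its UMIs, 34.1%, at 8.78 and 4.12, 9.5 and 12.9, and 7.95 and 4.35 CPM (7.94 ± 3.34), overlapping the fibroblast-like range. Then came astrocyte-like (4.74 ± 1.31), ependymal-like (4.03 ± 2.59), mural-like (3.40 ± 3.13), erythroid-like (2.59 ± 0.788), T or NK cell-like (2.27 ± 4.11), microglia-like (1.55 ± 0.834), choroid plexus-like (1.03 ± 0.427) and oligodendrocyte-like cells (0.942 ± 1.12). Both leading classes were called higher than the other gated cells, fibroblast-like by 2.53 (SE 0.42, edgeR adjusted p = 2.72e-08) and endothelial-like by 1.66 (SE 0.26, adjusted p = 0.000133) on the log2 scale. Microglia-like (-1.22, SE 0.30) and choroid plexus-like cells (-1.20, SE 0.30) were lower.

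Trpm7, which most cell types express, had 3 called folds against the other gated cells, all upward and at most 0.65. Single classes lay further apart, with every ependymal-like library (32.0 CPM or more) above every erythroid-like library (25.8 CPM or less). Its mean ran from 73.7 ± 30.8 CPM in ependymal-like cells, the ciliated lining of the ventricles, through fibroblast-like (58.6 ± 22.4), astrocyte-like (57.3 ± 11.7), endothelial-like (51.6 ± 21.1), microglia-like (50.0 ± 13.7), oligodendrocyte-like (37.6 ± 12.2), mural-like (33.6 ± 19.3), T or NK cell-like (28.8 ± 9.83) and choroid plexus-like (28.7 ± 6.46) to 19.6 ± 4.11 in erythroid-like cells (SD, n = 6). Neighbours in this order overlapped. The ependymal-like libraries were spread from 62.4 and 47.2 over 92.7 and 106 to 102 and 32.0 CPM. Ependymal-like cells were higher than the other gated cells by 0.65 on the log2 scale (SE 0.13, edgeR adjusted p = 0.000397). Smaller differences by edgeR in astrocyte-like (0.31, SE 0.11, adjusted p = 0.0297) and microglia-like cells (0.30, SE 0.09, adjusted p = 0.0124) were lost with no filter on low counts, at 0.20 in each. Both were also lost without WT vehicle 2 or TRPM2 Mg KO bilirubin 1, the microglia-like one without TRPM2 Mg KO bilirubin 2, and the astrocyte-like one with DESeq2 or a stricter gate, at 0.23 to 0.32.

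Trpc1 and Trpc6, both gated through phospholipase C signalling, had their highest mean in mural-like cells, the pericytes and smooth muscle of vessel walls. For Trpc1 the mural-like libraries held 5 and 6, 15 and 0, and 2 and 4 UMIs, or 41.4 and 27.1, 39.8 and 0, and 6.83 and 16.8 CPM (22.0 ± 17.1, SD, n = 6). The spread covered oligodendrocyte-like cells, which had the steadier level of 19.2 and 16.4, 16.9 and 27.4, and 14.6 and 10.4 CPM (17.5 ± 5.67). Astrocyte-like (14.2 ± 3.71) and ependymal-like cells (11.5 ± 5.21) came next, and the other 6 classes had means of 3.14 to 6.36 CPM. Trpc1 was higher in mural-like (log2 fold change 1.5, SE 0.35, edgeR adjusted p = 0.000352), oligodendrocyte-like (1.21, SE 0.20, adjusted p = 0.000174) and astrocyte-like cells (0.73, SE 0.21, adjusted p = 0.00642), and lower in microglia-like (-1.11, SE 0.25, adjusted p = 0.00154) and endothelial-like cells (-0.73, SE 0.24, adjusted p = 0.0225). Without WT bilirubin 1 the mural-like fold was 1.16 and no longer called, and without TRPM2 Mg KO bilirubin 1 the astrocyte-like fold was 0.58 and no longer called. The endothelial-like call was lost without WT vehicle 2, WT bilirubin 1 or TRPM2 Mg KO bilirubin 1, at -0.60 to -0.81.

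Trpc6 had 784 UMIs in all, of which 72.4% lay in cells without a class. Mural-like cells held 5 and 1, 6 and 0, and 3 and 1 UMIs (12.7 ± 15.1 CPM, SD, n = 6), with the highest level, 41.4 CPM, in WT vehicle 1. The other classes with any count had means of 0.760 to 4.12 CPM, led by ependymal-like (4.12 ± 3.14), astrocyte-like (3.78 ± 1.42) and erythroid-like cells (3.61 ± 2.37), and fibroblast-like cells held 0 UMIs in all 6 libraries. Trpc6 was called higher in mural-like (log2 fold change 2.24, SE 0.51, edgeR adjusted p = 0.000266) and erythroid-like cells (1.31, SE 0.33, adjusted p = 0.00351) and lower in choroid plexus-like cells (-1.5, SE 0.32, adjusted p = 0.000877). Fibroblast-like cells were called lower too, but that call was lost with DESeq2, with doublets kept and without WT vehicle 1, either WT bilirubin library or TRPM2 Mg KO bilirubin 1. The summed erythroid markers of the erythroid-like class were at 246674 to 530472 CPM in 5 libraries and at 13366 CPM in TRPM2 Mg KO bilirubin 2. Its Trpc6 range of 1.17 to 8 CPM overlapped that of cells without a class, 1.95 to 7.49 CPM.

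Between the groups, 42 of the 90 combinations of member and class passed the filter on low counts in each comparison, and edgeR called 0 of 42 in all 3 comparisons. Beside this, 0.586% of all 93720 tests were called for WT bilirubin against WT vehicle, 0.00427% for TRPM2 Mg KO bilirubin against WT bilirubin, and 0.0427% for TRPM2 Mg KO bilirubin against WT vehicle. At an unadjusted p under 0.05 there were 6, 2 and 1 member tests, and the smallest adjusted p-values were 0.124, 0.761 and 0.238. In whole libraries 0 of 27 member tests were called, where 0.00348% of all tests were, and 2 had an unadjusted p under 0.05, both for Trpc6. DESeq2 called 0 in classes and in whole libraries. The comparisons share libraries, WT bilirubin serving in 2 of them and WT vehicle in 2, so their values are given side by side and not as separate evidence.

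**Figure D5:**
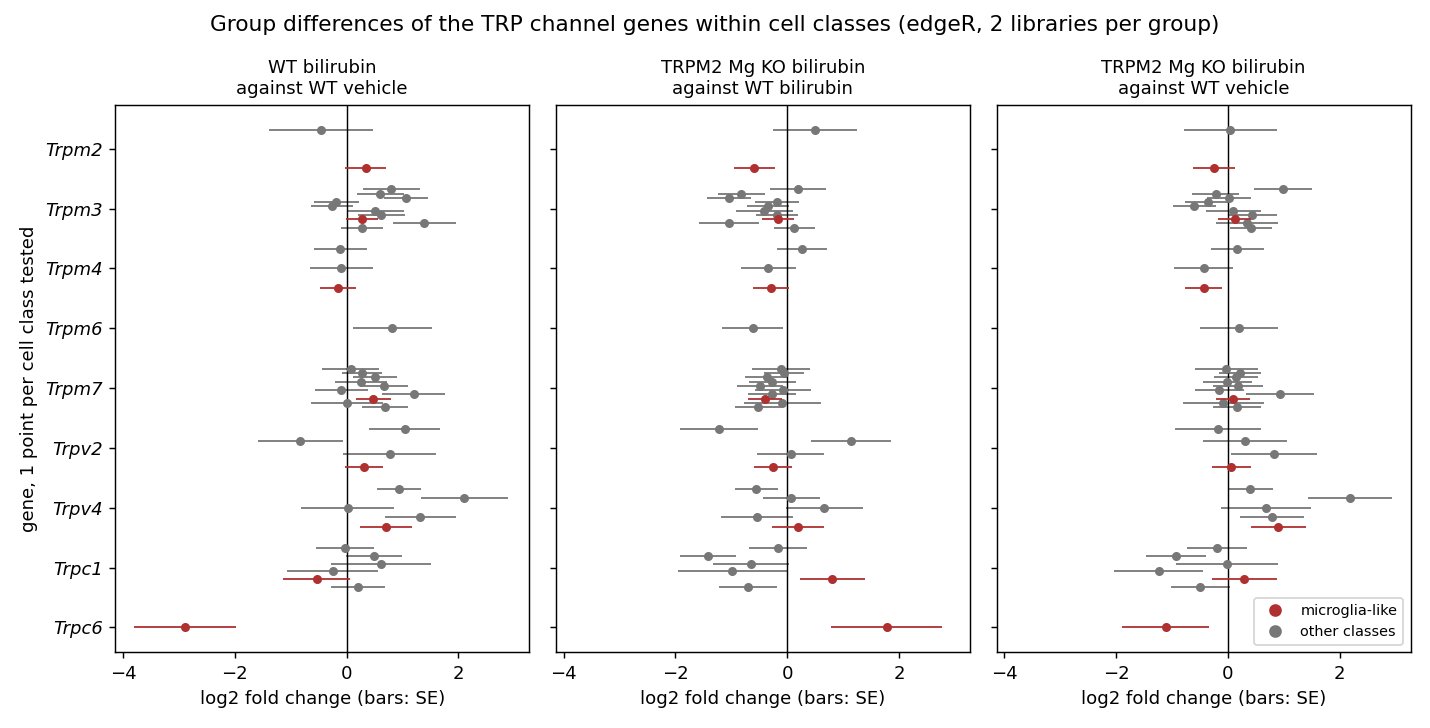
Log2 fold change with its standard error of each TRP channel gene (rows, 1 point per cell class that passed the filter, microglia-like in red) in the 3 comparisons between groups. Medians over the 42 tests are 0.33 with bilirubin in wild type, -0.27 for the knockout label against WT bilirubin and 0.09 against WT vehicle, and 0 of the 42 tests pass the threshold in each.

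For Trpm2 in microglia-like cells, both TRPM2 Mg KO bilirubin libraries (16.5 and 20.3 CPM) lay below both WT bilirubin libraries (20.5 and 34.6) and within the WT vehicle range of 16.3 to 25.0. The log2 fold change against WT bilirubin was -0.59 (SE 0.37, edgeR adjusted p = 1), and -0.23 without WT bilirubin 2. With bilirubin in wild type it was 0.34 (SE 0.36, adjusted p = 0.716), and for the knockout label against WT vehicle -0.25 (SE 0.38, adjusted p = 0.924). Neither sign held without single libraries: the first was -0.01 without WT bilirubin 2, and the second 0.01 without TRPM2 Mg KO bilirubin 1 and 0.04 without WT vehicle 1. The thinned shares of Trpm2-positive cells were 1.92% ± 0.367 in WT vehicle, 2.74% ± 0.930 in WT bilirubin and 1.87% ± 0.242 in TRPM2 Mg KO bilirubin (SD, n = 2 each). Summed neutrophil markers in microglia-like cells were 107 to 214 CPM in WT vehicle, 304 to 970 in WT bilirubin and 147 to 180 in TRPM2 Mg KO bilirubin, highest in WT bilirubin like the Trpm2 mean, and their part in the Trpm2 values was not tested. In neutrophil-like cells the Trpm2 log2 fold changes were 1.29 with bilirubin (SE 0.95), -0.48 for the knockout label against WT bilirubin (SE 0.80) and 0.80 against WT vehicle (SE 0.98), with edgeR adjusted p-values of 0.708 to 0.996.

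Trpm3 was tested in all 10 classes and had non-overlapping values in many of them. With bilirubin in wild type both libraries lay above both vehicle libraries in 6 of 10 classes, as for Trpm7, beside 4 of 5 for Trpv4. The Trpm3 values of both TRPM2 Mg KO bilirubin libraries lay below both WT bilirubin libraries in 7 of 10. Over all genes and classes 22.4% and 14.8% of tests had such values. In choroid plexus-like cells the log2 fold changes were 1.06 (SE 0.39, edgeR adjusted p = 0.252) with bilirubin, -1.04 (SE 0.39, adjusted p = 1) for the knockout label against WT bilirubin, and 0.02 against WT vehicle. Without WT bilirubin 2, the highest library, they were 0.58 and -0.50. In astrocyte-like cells they were 0.60 (SE 0.42) and -0.82 (SE 0.42), and without that library 0.13 and -0.35. The largest bilirubin value was in mural-like cells, 1.39 (SE 0.56, adjusted p = 0.821), from 58.0 and 140 CPM to 337 and 220. Without WT vehicle 1 it was 0.85. Ttr in the same mural-like libraries stood at 7861 and 53542, and at 53190 and 59800 CPM. In choroid plexus-like cells too Ttr was above both vehicle libraries in both WT bilirubin libraries, at the values given above, and its part in the Trpm3 values was not tested.

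The Trpv4 values with bilirubin depended on the vehicle library they were set against. In choroid plexus-like cells the log2 fold change was 0.94 (SE 0.40, edgeR adjusted p = 0.347). Without WT vehicle 1, the library low in Ttr, it was 0.58 (adjusted p = 1), and without WT vehicle 2, so that WT vehicle 1 stood alone, it was 1.78 (adjusted p = 0.0468). In endothelial-like cells Trpv4 had 0 and 4 UMIs in WT vehicle, 44 and 5 in WT bilirubin, and 41 and 41 in TRPM2 Mg KO bilirubin. It passed the filter on low counts there only through the libraries given bilirubin, so its folds against WT vehicle only describe the values. The folds were 2.11 (SE 0.78, adjusted p = 0.214) with bilirubin and 2.18 (SE 0.75, adjusted p = 0.238) for the knockout label against WT vehicle, and 1.61 and 1.68 without WT vehicle 1. Ttr in the same endothelial-like libraries stood at 3533 and 46298, 35287 and 35428, and 20193 and 51980 CPM, lowest in WT vehicle 1, and its part in the Trpv4 values was not tested. In erythroid-like cells Trpv4 went from 1.45 and 11.6 CPM in WT vehicle, 2 UMIs in the first, to 15.7 and 25.3 in WT bilirubin, a fold of 1.32 (SE 0.63, adjusted p = 0.856), and 0.90 without WT vehicle 1. Ttr in these libraries was at 6012 and 50433, and at 44022 and 73863 CPM.

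Trpc6 in microglia-like cells had the smallest adjusted p of the members. It had 6 and 19 UMIs in WT vehicle, 4 and 0 in WT bilirubin, and 12 and 1 in TRPM2 Mg KO bilirubin, or 4.54 and 4.37, 0.892 and 0, and 2.88 and 0.847 CPM. Both WT vehicle libraries lay above the other 4. Only the WT vehicle libraries were high enough for the filter on low counts, so Trpc6 was tested here through the group where it is high. Its folds and p-values in these cells are therefore a description of the values. The log2 fold change was -2.89 with bilirubin (SE 0.91, edgeR adjusted p = 0.124) and 1.78 (SE 0.99) for the knockout label against WT bilirubin. With no filter on low counts the bilirubin value was -2.87 with an adjusted p of 0.0306. Summed excitatory neuron markers in the same cells, 8 of 8 detected, were 298 to 516 CPM in WT vehicle, 41.9 to 220 in WT bilirubin and 186 to 224 in TRPM2 Mg KO bilirubin, the same order as Trpc6, and their part was not tested.

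Of the remaining members, Trpm7 had both WT bilirubin libraries above both WT vehicle libraries in 6 of 10 classes (22.4% over all genes), with 0.48 in microglia-like cells (SE 0.31, edgeR adjusted p = 0.497). Trpv2 in microglia-like cells gave 0.31 with bilirubin (SE 0.34) and Trpm4 -0.15 (SE 0.32). The first was -0.15 without WT bilirubin 2, and the second 0.06 without WT vehicle 1 and 0.08 without WT bilirubin 1. Trpm6 passed the filter in endothelial-like cells alone, with 0.82 (SE 0.71, and 1.23 without WT vehicle 1) and -0.62 (SE 0.55) for the first comparison and the second. Trpc1 in choroid plexus-like cells was at 8.99 and 5.52, 5.78 and 11.4, and 3.60 and 2.84 CPM, with both TRPM2 Mg KO bilirubin libraries the lowest, and a fold of -1.42 against WT bilirubin (SE 0.50, adjusted p = 1). Counted over the members, values did not overlap upward in 19 and downward in 3 of 42 tests with bilirubin, where 22.4% and 19.7% of all genes did so. For the knockout label against WT bilirubin there were 3 upward and 18 downward (12.4% and 14.8% of all genes), and against WT vehicle 6 and 8 (17.1% and 17.7%). Trpm3 and Trpm7 gave 10 tests each of the 42. The filter on low counts used the same levels, for all genes alike, so part of these counts was fixed by it. Trpv4 and Trpv2 in endothelial-like cells, counted upward with bilirubin, passed it only through libraries given bilirubin. Trpc6 and Trpc1 in microglia-like and Trpv2 in choroid plexus-like cells, counted downward, passed it only through libraries outside WT bilirubin.

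The genes around these channels were described through 4 lists. Of the other TRP genes, 18 of 19 were in the tables, and 7 were well counted, among them Pkd2, a channel of cilia, with 3309 in all libraries, Mcoln1, the lysosomal channel, with 1860, Trpc4 with 1383, Trpc5 with 1306, Trpc7 with 556 and Pkd2l2 with 422. The other 11 had 7 to 77 UMIs, such as Trpv1 (11) and Trpa1 (18), the channels of capsaicin and mustard oil. Of the 7 tested in microglia-like cells against the other gated cells 0 were higher and 2 lower, Trpc4 (-0.78) among them. Of all genes 32.1% were higher there and 35.4% lower. Between groups 0 of 25 tests were called by edgeR in each of the 3 comparisons (2, 0 and 1 at an unadjusted p under 0.05, in the order above). Of all tests 0.586%, 0.00427% and 0.0427% were called in the same order. In microglia-like cells with bilirubin Trpc4 was at -1.37 (SE 0.70, edgeR adjusted p = 0.378) and Trpc5 at -1.57 (SE 0.82, adjusted p = 0.384).

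Enzymes that make and break ADP-ribose and NAD supply or remove the TRPM2 ligand. In microglia-like cells 6 of 18 genes tested were higher than in the other gated cells and 6 lower, near the 32.1% and 35.4% of all genes, with a median of -0.01 against -0.07 over all genes. Parp1 (0.75) and Parp2 (0.83), which build poly-ADP-ribose, and Adprs (0.46), a hydrolase of ADP-ribose bonds, were among the higher, with Sirt1, Nmnat3 and Nadk. Cd38 (-1.98) and Bst1 (-1.55), which make ADP-ribose and its cyclic form from NAD, were among the lower, with Macrod1, Macrod2, Nmnat2 and Nudt5. Between groups 1 of 127 tests was called with bilirubin, near the 0.586% of all tests, Macrod2 in microglia-like cells, which fell by 1.33 on the log2 scale (SE 0.33, edgeR adjusted p = 0.0498). For the knockout label 0 were called in both comparisons (2 against WT bilirubin and 7 against WT vehicle at an unadjusted p under 0.05), beside 0.00427% and 0.0427% of all tests. The Macrod2 call was lost without any library but WT bilirubin 1, at -1.04 to -1.35, with DESeq2 at -1.36, and with doublets kept at -0.82. Macrod2 went the way of the neuron markers given beside Trpc6, whose part was not tested.

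Of 12 magnesium transport genes tested in microglia-like cells 4 were higher, Slc41a3 (1.5), Cnnm4 (1.17), Magt1 (0.88) and Nipa2 (0.69), and 6 lower, such as Slc41a2 (-1.59) and Tusc3 (-1.09), with a list median of -0.37 and beside 32.1% of all genes higher and 35.4% lower. Between groups 0 of 72 tests were called by edgeR in each comparison (4, 2 and 2 at an unadjusted p under 0.05), beside 0.586%, 0.00427% and 0.0427% of all tests. Cnnm1 in microglia-like cells had -1.86 with bilirubin (SE 0.53, edgeR adjusted p = 0.0862). Of 17 partners and regulators of TRP channels 7 were higher in microglia-like cells, led by Plcg2 (3.07, SE 0.21), a phospholipase of immune receptors, with Itpr2 (1.44), the store-operated pores Orai1 (1.43), Orai2 (1.43) and Orai3 (0.75), Ptk2b and Calm2. The 7 lower included Aqp4 (-1.29), also a marker in the astrocyte gate, Plcb1 (-1.11), Calm3, Stim1, Stim2 and Itpr1, and the list median was 0.20. Of all genes 32.1% were higher and 35.4% lower. Between groups 3 of 143 partner tests were called, beside 0.586% of all tests, each lower with bilirubin: Plcb1 in microglia-like (log2 fold change -1.44, SE 0.34, edgeR adjusted p = 0.0452) and oligodendrocyte-like cells (-2.03, SE 0.39, adjusted p = 0.00978), and Kcnma1 in endothelial-like cells (-1.78, SE 0.42, adjusted p = 0.0375). The Plcb1 call in microglia-like cells was lost without any library but WT bilirubin 1, at -1.02 to -1.54, and with doublets kept at -1.07. That in oligodendrocyte-like cells was lost without WT bilirubin 2 or WT vehicle 2, at -2.07 and -1.74. The Kcnma1 call was lost without either WT bilirubin library or WT vehicle 1, at -1.57 to -2.12. Most calls over all genes had that direction too, 212 of 246 in microglia-like, 136 of 138 in oligodendrocyte-like and 137 of 151 in endothelial-like cells. Excitatory neuron markers stood at 296 to 539 CPM in WT vehicle and 33.9 to 191 in WT bilirubin in oligodendrocyte-like cells, and at 373 to 697 and 90.6 to 212 in endothelial-like cells, and their part was not tested. In both comparisons of the knockout label 0 of 143 were called (4 and 7 at an unadjusted p under 0.05), beside 0.00427% and 0.0427% of all tests. Without knockout libraries given vehicle, whether the knockout responds to bilirubin differently from wild type could not be tested.

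The genes most like each member in their levels over the 10 classes were found by Pearson's r of log2(CPM + 1) over 10 class means. The search covered 13365 genes of at least 5 CPM in a class, as a description of means from shared libraries. For Trpm2 they were Ermap (r = 0.950), Nlrp1c-ps (0.947), Bco2 (0.946), Gp9 (0.945) and Cysltr1 (0.943), a leukotriene receptor. Ermap was also the first gene of microglia-like cells by fold. For Trpv4 they were Kcne2 (0.968), a potassium channel subunit of choroid plexus, Igfn1 (0.960) and Sult1c2 (0.957). For Trpm3 they were Ephx2 (0.943), Slc7a10 (0.931) and Mapk4 (0.931), for Trpm4 Xbp1 (0.960), Il13ra1 (0.954) and Tspan4 (0.931), and for Trpv2 Rrad (0.974), Rcor1 (0.956) and Rnf2 (0.932). For Trpm6 they were Fat4 (0.966) and Gpx7 (0.954), and for Trpm7 Cep70 (0.957), Ammecr1l (0.955) and Trmu (0.953). Trpc1 went with Ncald (0.920), Cadm4 (0.904) and Zfp607b (0.899), and Trpc6 with Gpr45 (0.971), Chga (0.959) and Silc1 (0.959). A class mean can lean on 1 library. In mural-like cells Trpv2 had 147 CPM from 6 UMIs in WT bilirubin 2, and Trpc6 41.4 CPM from 5 UMIs in WT vehicle 1. Rrad, Rcor1, Gpr45, Chga and Silc1 had their highest mean in that class too.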

How the data were processed

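Per the labels, 10x Genomics 3' libraries (version 3.1 chemistry) of dissociated mouse brain cells were sequenced as paired reads. For each library the deposited values are raw UMI counts of every gene in every cell, beside barcode and gene tables that hold names and other text. Cell Ranger 8.0.0 and Scanpy 1.9.6 appear in the submitters' processing notes, with GRCm39 as well as mm10 as builds of unstated role, while Cell Ranger 9.0.1 stands in the matrix headers. The rule for calling cells was not given.

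Members and gene lists were chosen with earlier results of these data known, and the thresholds of the gate were set after seeing the data. All 9 members were tested in every comparison, in the classes where they passed the filter on low counts, and not all of their values are printed. List genes are named where called, and otherwise the 2 with the smallest p in microglia-like cells; for each member the 3 genes with the most similar class pattern are named (5 for Trpm2), leaving out gate markers, predicted, ribosomal, mitochondrial and globin genes. List genes called in a class against the other gated cells, and rare channels, were named after their values were seen. Some genes that these rules name are not reported here.

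Kept cells had 500 or more UMIs, 300 or more genes and no more than 15% of UMIs from mitochondrial genes, and the cells with the highest Scrublet scores (scanpy 1.11.5) were taken out as doublets, at 0.8% per 1000 cells. A cell was assigned to a class when at least 3 of its markers (169 markers, 19 classes) exceeded the library's own share of that marker at a Poisson p of 0.05, and more than for any other class. UMIs were summed per library and class and tested with edgeR 4.0.16 in R 4.3.3 (quasi-likelihood, two-sided, TMM, filterByExpr), with all 6 libraries and group in 1 fit. Each class was also tested against the other gated cells with library as a term. The Benjamini-Hochberg adjustment ran over all genes of a fit, with a threshold of 0.05. CPM are not scaled by TMM. Shares of cells were thinned to 1000 UMIs and compared with an exact sign-flip test over libraries. The fits were tested on simulated data. DESeq2 1.42.0, other scaling, filters and gates, kept doublets and leaving out each library were alternatives.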

Additional observations from a re-analysis of the deposited data

Results flagged for a closer look

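For 4 members, classes moved in opposite directions in the same comparison, with the libraries of both groups not overlapping in each class. Over all genes, libraries lay apart upward in 22.4% and downward in 19.7% of class tests with bilirubin. For the knockout label the shares were 12.4% and 14.8% against WT bilirubin, and 17.1% and 17.7% against WT vehicle. How many of all genes had classes moving in opposite directions was not counted. The differences between classes were not tested, and none of the members' log2 fold changes given here passed the threshold of edgeR. Groups of 2 libraries have no test for a single deviating library. Some tests passed the filter on low counts only through groups where the gene is high, among them Trpc1 in microglia-like and Trpv2 in endothelial-like cells. Trpc1 for TRPM2 Mg KO bilirubin against WT bilirubin was at 0.81 in microglia-like cells, and at -0.64 in endothelial-like, -1.42 in choroid plexus-like and -0.70 in oligodendrocyte-like cells. Some libraries held few Trpc1 UMIs, such as WT bilirubin 2 with 6 in microglia-like and 3 in endothelial-like cells. Trpm3 for TRPM2 Mg KO bilirubin against WT vehicle was at 0.99 in T or NK cell-like cells, and at -0.36 in endothelial-like, -0.60 in ependymal-like and -0.22 in astrocyte-like cells. The T or NK cell-like value rests on the lowest library, WT vehicle 1, at 31.5 CPM against 85.3 to 141 in the others, and without it the 4 values were 0.52, -0.57, -0.89 and -0.04. Trpv2 for WT bilirubin against WT vehicle was at 1.04 in T or NK cell-like and 0.77 in endothelial-like cells, and at -0.83 in choroid plexus-like cells. Without WT vehicle 1, which held 1 Trpv2 UMI in T or NK cell-like cells, they were 0.59, 0.62 and -0.49. Trpv2 for TRPM2 Mg KO bilirubin against WT bilirubin was at -1.22 in T or NK cell-like cells and 1.14 in choroid plexus-like cells, where the libraries held 4 to 22 UMIs. Trpv4 for TRPM2 Mg KO bilirubin against WT bilirubin was at -0.55 in choroid plexus-like and 0.66 in ependymal-like cells.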

How the results depend on the processing

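Of the 51 called class levels, 38 were called in the same direction under every alternative run, and the other 13 lost the call under at least 1. The count was 47 to 53 under the other settings and 43 to 53 when single libraries were left out. For WT bilirubin against WT vehicle, 1 member test was called with no filter on low counts, Trpc6 in microglia-like cells, and 0 to 1 without single libraries, the 1 being Trpv4 in choroid plexus-like cells without WT vehicle replicate 2. In whole libraries the range was likewise 0 to 1, with Trpv4 at 2.60 (adjusted p = 0.0209) without that library and 0.41 without WT vehicle replicate 1. Both comparisons of the knockout label stayed at 0 calls under all alternatives run. The shares at equal depth gave 4 of 4 calls with 6 libraries and 0 to 0 without any single one, since the sign-flip test cannot reach the threshold with 5. In microglia-like cells the sign turned, without single libraries, for Trpm2 with bilirubin (-0.01 without WT bilirubin replicate 2, range to 0.69), for Trpm2 of the knockout label against WT vehicle (0.01 without TRPM2 Mg KO bilirubin replicate 1, 0.04 without WT vehicle replicate 1, range from -0.57), for Trpv2 with bilirubin (-0.15 without WT bilirubin replicate 2, range to 0.70) and for Trpm4 with bilirubin (0.08 without WT bilirubin replicate 1, 0.06 without WT vehicle replicate 1, range from -0.38). The cause was not tested. Each of the 4 calls of list genes with bilirubin (Macrod2, Plcb1 in 2 classes and Kcnma1) was lost under at least 1 of the same alternatives, chosen for them after seeing the calls. With the replicate number as a block, 0 member tests were called in all 3 comparisons and in whole libraries. Same-numbered libraries deviated with correlations of -0.368 to 0.162. With 1 difference between replicates per group, these values cannot settle whether such libraries share more than a number. A stricter cell filter leaves 9 classes, without mural-like cells, and a stricter gate leaves out fibroblast-like cells. With 2 libraries per group and, for Trpm6 and Trpc6, few UMIs per class, differences between groups of the sizes given could not be told from the spread.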
